A study of Mus musculus with 53 samples.

Results

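The 10 genes described here, Nfasc, Cntn1, Cntn2, Cntnap1, Cntnap2, Gldn, Nrcam, Ank3, Sptbn4 and Scn8a, encode the adhesion molecules, scaffolds and sodium channel of the node of Ranvier and of the paranode and juxtaparanode beside it. They were taken by symbol from the 49568 genes listed for each sciatic nerve (SCN) sample, and all 10 were listed in all 53 samples. Gldn, Nfasc, Ank3 and Nrcam were the members with the highest levels, and 6 members, among them the axonal Caspr genes Cntnap1 and Cntnap2, stood at their highest value of the whole series in 1 nerve, HFD-STZ24wk replicate 7. This nerve was singled out by its neuron marker mean, the highest of its group, and 20.1% of 18069 genes were highest in it. No member passed the test between any pair of groups, by diet, streptozotocin, reversal or age. In these pairs at most 0.121% of all genes passed with all nerves and at most 0.654% without that nerve, so 0 of 10 is near the share of all genes. In a contrast of the ages averaged over 3 diets, added after the group means had been seen, Gldn, Nrcam and Nfasc were lower at 24 weeks than at 16 weeks, where 4.58% of all genes passed. None of these 3 passed with the Schwann cell or the adipocyte marker mean as a covariate, where 0.294% and 0.488% of all genes did.

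A myelinated axon carries its voltage-gated sodium channels in short bare gaps between Schwann cells, the nodes of Ranvier, where the action potential is renewed. Schwann cell microvilli secrete gliomedin (Gldn), which binds axonal neurofascin (Nfasc) and NrCAM (Nrcam), and ankyrin-G (Ank3) and beta-IV spectrin (Sptbn4) tie these to the channel Nav1.6 (Scn8a). At the flanking paranode, contactin-1 (Cntn1) and Caspr (Cntnap1) on the axon meet the glial form of neurofascin, and at the juxtaparanode, contactin-2 (Cntn2) and Caspr2 (Cntnap2) hold potassium channels under the myelin. The cell bodies of the axons lie outside the nerve, in ganglia and spinal cord. In whole nerve, fewer cells of a type and less RNA per cell cannot be told apart, and a value per gene does not separate the axonal from the glial form of neurofascin.

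All nerves came from male C57BL/6J mice. At 16 weeks of age there were 5 nerves of mice on control diet (SD16wk, 13% of calories from fat by the labels), 7 of mice fed 60% of calories as fat from 5 weeks of age (HFD16wk) and 5 of mice on this high-fat diet that also received streptozotocin (STZ), a toxin of insulin-producing cells, at 75 mg/kg at 12 weeks and 50 mg/kg 3 days later (HFD-STZ16wk). At 24 weeks there were 8 SD24wk, 7 HFD24wk and 8 HFD-STZ24wk nerves, and 7 HFD-DR24wk and 6 HFD-STZ-DR24wk nerves of mice returned to control diet at 16 weeks for 8 weeks (dietary reversal, DR). The sources differ on the fat share of the control diet. Age and time on the diet cannot be told apart in the fed groups, and the diet and STZ were given to whole mice, so no group isolates a response of axons or Schwann cells.

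The values were the authors' log2 values, 1 per gene and nerve. Depth is unknown from these values, and the error given throughout is the spread between nerves. Values of different nerves correlated across 18069 genes at 0.916 to 0.994, and those of HFD-STZ24wk replicate 7 with the others at 0.916 to 0.949. This nerve was singled out as the HFD-STZ24wk nerve with the highest neuron marker mean. Its neuron marker values therefore describe that choice and give no separate support. Of 20 neuron markers, 19 were highest there of all 53 nerves, and 9 of these 19 were listed there above 22. The mean of the other 11 of the 20, by which the nerve was chosen, was 11.51 against 6.44 to 7.34 in the other 52. Prph, the peripherin of peripheral neurons, was at 14.55 there and at most 9.37 elsewhere. Chat, of motor neurons, was at 1.83, rank 52 of 53, but at most at 3.21 elsewhere. It was thus under 3.32, the filter of the tests, in every nerve, and its rank says little. The mean of 10 Schwann cell markers was 16.77 there (16.41 to 17.35 elsewhere), which shows the labelled tissue, and the mean of 7 central glial markers was 3.79 (3.05 to 4.32 elsewhere, with Mog at 1.68, Opalin at 1.12 and Olig2 at 0.18, ranks 53, 51 and 49, and Aqp4 at 6.97, rank 4, and Mobp at 6.65, rank 17). Mog, Opalin and Olig2 were at most at 3.35, 2.32 and 1.03 elsewhere, so their ranks say little too. Fibroblast markers (14.03 against 14.5 to 15.72) had a mean below that of all other nerves, as did endothelial markers, and the mean of 6 markers of non-myelinating Schwann cells (12.06 against 11.04 to 11.86) was above that of all others, with Ngfr, Ncam1 and L1cam each highest there. Results that involve this group are therefore given with and without that nerve where it changed a call, turned a direction or moved a value by over 1.5 times. Skeletal muscle markers ranged from 6.52 to 17.07 and adipocyte markers from 8.36 to 14.45 over the other 52 nerves.

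Levels were set side by side per length, as the linear value (2 to the power of the log2 value) per kb of merged exons, over the 52 nerves without HFD-STZ24wk replicate 7. Gldn had the highest level at a median of 4053 per kb, followed by Nfasc at 1029, Ank3 at 431 and Nrcam at 286. Cntn1 (67.9 per kb) and Scn8a (54.9) were intermediate, and Cntnap1 (13.1), Sptbn4 (5.28), Cntnap2 (3.57) and Cntn2 (2.12) were lowest. The spread between nerves of a group ran the other way: on the log2 scale the within-group SD was 0.19 for Nrcam and Ank3, 0.22 for Gldn, 0.23 for Nfasc and Cntn1 and 0.26 for Scn8a, against 0.31 for Cntnap1, 0.47 for Cntn2 and Sptbn4 and 0.68 for Cntnap2.

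The nodal genes lie apart in the genome (GRCm38, GENCODE annotation). Gldn spans chr9:54286486-54341786, Nrcam chr12:44328885-44601964, Ank3 chr10:69398773-70027438, Scn8a chr15:100869858-101045938 and Sptbn4 chr7:27356383-27447686. Of the paranodal genes, Cntn1 spans chr15:92051165-92341967 and Cntnap1 chr11:101170523-101190724. Nfasc (chr1:132564690-132741797) and Cntn2 (chr1:132509427-132543256) are neighbours on the same strand, and Cntnap2 is the longest gene of the set (chr6:45059357-47304213). The libraries did not keep the strand, so reads of Cntnap1 in the 3.97% of its exon bases shared with Plekhh3, and of Sptbn4 in the 3.94% shared with 2 predicted genes, cannot be assigned to 1 gene.

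**Figure D1:**
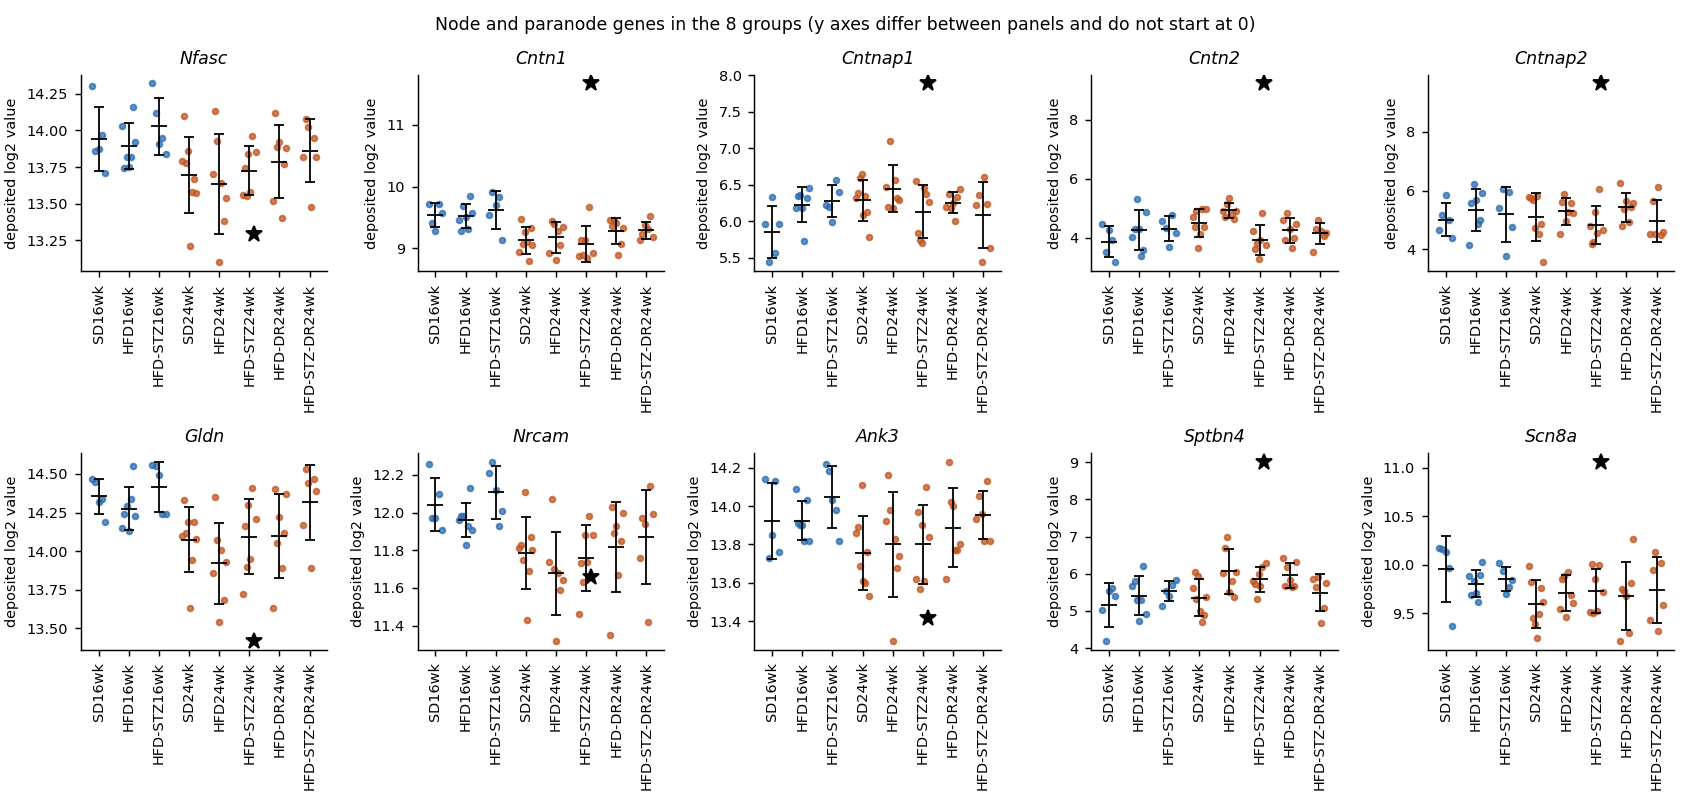
Deposited log2 value (y axis) of the 10 members in each nerve of the 8 groups (x axis), with 16-week groups in blue and 24-week groups in orange. Bars are the mean and SD without HFD-STZ24wk replicate 7, which is drawn as a star: it is the highest point for Cntn1 (11.67), Cntnap1, Cntn2, Cntnap2, Sptbn4 and Scn8a, and the lowest for Gldn (13.42).

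In HFD-STZ24wk replicate 7, 6 of the 10 members were the highest of all 53 nerves, from both partners of the juxtaparanode to the nodal sodium channel. Cntn2 was at 9.23 there, against 4.23, 3.62, 3.81, 3.27, 3.92, 4.84 and 3.74 in the other 7 HFD-STZ24wk nerves, 5.31 above their mean on the log2 scale (39.7-fold). Cntnap2, its juxtaparanodal partner, was at 9.64 against 4.19 to 6.05 in the other 7, a difference of 4.82 (28.2-fold). Both juxtaparanodal adhesion genes thus stood over 3 log2 units above every other nerve of the group.

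The paranodal pair rose less. Cntn1 was at 11.67 in that nerve, against 8.87, 9.14, 8.90, 9.14, 8.84, 9.67 and 8.92 in the rest of the group, a difference of 2.60 (6.07-fold). Cntnap1 was at 7.89 against 5.71 to 6.55, a difference of 1.75 (3.37-fold). Of the nodal genes, Sptbn4 was at 9.01 against 5.31 to 6.30 (3.16 higher, 8.92-fold) and Scn8a at 11.06 against 9.50 to 10.01 (1.33 higher, 2.51-fold). None of the 52 other nerves reached these values for any of the 6 genes.

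The other 4 members were not raised in it. Nfasc was at 13.29, 0.43 below the mean of the other 7 and below each of them (rank 51 of 53). Gldn, the Schwann cell ligand, was at 13.42, 0.67 below that mean and the lowest of all 53 nerves. Ank3 was at 13.42 (0.39 below, rank 52) and Nrcam at 11.66 (0.09 below, rank 45, with 2 of the other 7 nerves lower). As background for these ranks, 20.1% of 18069 genes had their highest value of the series in this nerve and 13.6% their lowest, and a single nerve gives no test.

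Genes of the same domains, from 5 lists of 48 genes in all, were divided in this nerve too. Of 12 nodal sodium and potassium channel genes, 7 were highest of the 53 there, among them Scn9a (Nav1.7 of sensory neurons, 11.01 against a mean of 6.03 in the other 7) and Scn1a (9.51 against 4.53), while Scn2a (7.57 against 7.63) and Scn3a (5.91 against 5.74) stood within the range of the rest. Of 10 juxtaparanodal channel complex genes, 7 were highest, led by Lgi3 (11.15 against 6.86) and the potassium channel subunit Kcnab2 (13.19 against 9.19), whereas the channels Kcna1 (13.97 against 14.10) and Kcna2 (13.90 against 14.19) were not. Of 5 axonal scaffold genes, 2 were highest, Epb41l3 (13.61 against 11.25) and Ank2 (13.09 against 12.16), and 1 was lowest, Sptbn1 (14.84 against 15.52). Of 9 genes of Schwann cell microvilli and the nodal matrix, 1 was highest (Slc9a3r1) and 3 were lowest of the 53: Vcan, the proteoglycan versican (7.66 against 9.78), Dag1, the dystroglycan gene (15.54 against 16.23), and Utrn, the utrophin gene (14.52 against 15.04). Of 12 genes of non-compact myelin and the internode, 1 was highest (Cadm1) and 3 were lowest.

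**Figure D2:**
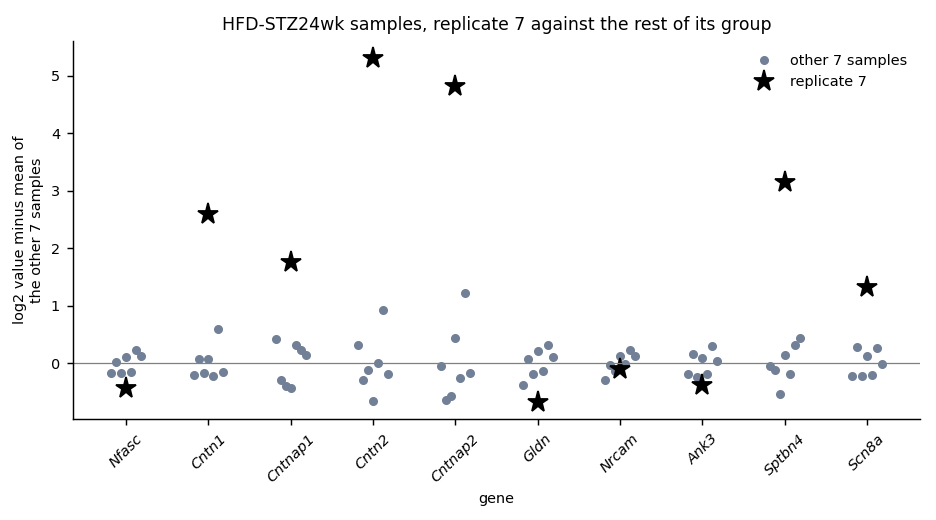
Log2 value of each member minus the mean of the 7 HFD-STZ24wk nerves other than replicate 7 (y axis), for these 7 nerves (grey points) and for replicate 7 (star). Cntn2 (5.31) and Cntnap2 (4.82) lie farthest above the others, and Gldn (-0.67) farthest below.

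The ages were compared within SD, HFD and HFD-STZ and, in 1 fit of these 6 groups, averaged over them. The averaged contrast was added after the group means had been seen. In it, 3 of 10 members passed the adjusted threshold, all lower at 24 weeks: Gldn, Nrcam and Nfasc, the genes of gliomedin and of proteins it binds at the node. From which cells the Nrcam and Nfasc RNA of the nerve came was not tested. Among all genes tested, 4.58% passed (3.29% lower and 1.29% higher at 24 weeks), 826 of 18032. Of these calls 71.9% were lower at 24 weeks, and 88.5% of 1969 calls after each nerve was centred on its median. The median difference of the members was -0.17 against 0.01 for all genes. Both ages were sampled in separate mice, and whether their nerves were collected and prepared together is not given in the labels.

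Gldn in the 5 SD16wk nerves was at 14.47, 14.45, 14.32, 14.34 and 14.19, and in the 8 SD24wk nerves the lowest, median and highest values were 13.63, 14.11 and 14.33. In HFD16wk these were 14.13, 14.24 and 14.55, and in HFD24wk 13.54, 13.93 and 14.35. The HFD-STZ16wk nerves were at 14.56, 14.55, 14.49, 14.24 and 14.24, and the HFD-STZ24wk nerves other than replicate 7 ran from 13.72 over 14.16 to 14.41. Of these 22 nerves of 24 weeks, 19 were below the median of the 17 nerves of 16 weeks and 14 below the lowest of them, so the ages overlapped in the upper part of the older range. The difference was -0.35 on the log2 scale (SE 0.07, 95% interval -0.49 to -0.20, 0.786 times the 16-week level, limma adjusted p = 0.0033). Without HFD-STZ24wk replicate 7 it was -0.32 (SE 0.06, adjusted p = 0.00247). The reversal nerves, also of 24 weeks, were not in this contrast. Their Gldn mean was 14.1 ± 0.27 (SD, n = 7) in HFD-DR24wk and 14.32 ± 0.24 (n = 6) in HFD-STZ-DR24wk. The latter stood above HFD16wk (14.28 ± 0.14, n = 7), so not every group of 24 weeks had a lower Gldn mean.

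Nrcam in SD16wk was at 12.26, 11.97, 11.97, 12.10 and 11.91, against 11.43, 11.81 and 12.11 as the lowest, median and highest in SD24wk. HFD16wk had 11.83, 11.96 and 12.13 and HFD24wk 11.32, 11.68 and 12.07. The HFD-STZ16wk nerves were at 12.21, 12.27, 12.12, 11.93 and 12.01, and HFD-STZ24wk without replicate 7 had 11.46, 11.74 and 11.98. Again 19 of 22 older nerves were below the 16-week median, and 15 below the lowest 16-week nerve. The difference was -0.30 (SE 0.05, 0.811 times, adjusted p = 5.48e-04), and -0.30 without replicate 7 as well (adjusted p = 6.91e-04).

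Nfasc ranged from 13.71 to 14.32 in the 17 nerves of 16 weeks, with a median of 13.91, and from 13.10 to 14.13 in the 22 of 24 weeks, with a median of 13.69. Its difference was -0.29 (SE 0.08, 0.819 times, adjusted p = 0.0216), or -0.27 without replicate 7 (adjusted p = 0.0244), and 18 of 22 older nerves were below the 16-week median. This call did not hold in every fit: leaving out SD16wk replicate 1 took the adjusted p to 0.0518 and testing all genes without the filter on low values took it to 0.0548.

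Cntn1, the paranodal contactin, was the member whose result turned on HFD-STZ24wk replicate 7. SD16wk nerves were at 9.72, 9.41, 9.29, 9.72 and 9.57, HFD16wk had a lowest, median and highest of 9.28, 9.51 and 9.85, and HFD-STZ16wk nerves were at 9.54, 9.92, 9.70, 9.83 and 9.13. At 24 weeks SD24wk had 8.80, 9.09 and 9.47, HFD24wk 8.81, 9.28 and 9.45, and HFD-STZ24wk without replicate 7 had 8.84, 8.92 and 9.67. Of these 22 nerves, 21 were below the 16-week median. With replicate 7 the difference was -0.33 (SE 0.15, adjusted p = 0.193), and without it -0.44 (SE 0.08, 95% interval -0.60 to -0.28, 0.739 times, adjusted p = 6.12e-04), which made 4 members called where 6.61% of all genes were.

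The remaining members did not pass in either fit. Ank3, the ankyrin-G scaffold, differed by -0.19 (SE 0.06, adjusted p = 0.0734) or, without replicate 7, by -0.18 (adjusted p = 0.0769), and Scn8a by -0.14 (SE 0.10, adjusted p = 0.418) or, without replicate 7, by -0.19 (SE 0.07, adjusted p = 0.0834). The values of the 4 genes of low level rested in part on replicate 7. With it they were Sptbn4 0.52 (SE 0.22, adjusted p = 0.150), Cntn2 0.53 (SE 0.30, adjusted p = 0.316), Cntnap1 0.24 (SE 0.13, adjusted p = 0.286) and Cntnap2 0.09 (SE 0.32, adjusted p = 0.911). Without it they were 0.39 for Sptbn4 (SE 0.15, adjusted p = 0.11), 0.31 for Cntn2 (SE 0.16, 0.231), 0.17 for Cntnap1 (SE 0.10, 0.313) and -0.11 for Cntnap2 (SE 0.22, 0.817), so the sign of Cntnap2 turned and the value of Cntn2 moved by over 1.5 times. A rise of 1.5-fold (0.58) lay within the interval of Cntn2 in both fits (-0.09 to 1.15 and -0.01 to 0.63).

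Markers of other cell types moved with age too. The mean of the 10 Schwann cell markers was 17.08 ± 0.16 (SD, n = 17) at 16 weeks and 16.84 ± 0.22 (n = 22, without replicate 7) at 24 weeks, and with all 40 nerves 4 of the 10, Pmp22 and Prx among them, fell in the averaged age contrast, with none higher. The adipocyte marker mean was 11.89 ± 1.62 and 13.00 ± 1.08, and 3 of its 6 genes (Plin1, Cidec and Lep) rose. Of 6 markers of non-myelinating Schwann cells, whose mean was 11.64 and 11.45, 2 fell (Scn7a and Cdh2), as did 1 of 4 fibroblast markers (Col1a1) and 1 of 3 tested central glial markers (Mobp). The macrophage marker mean was 9.86 and 10.24. With all 40 nerves, 0 of 4 macrophage, 0 of 4 endothelial and 0 of 10 tested neuron markers were called. Without replicate 7 the neuron marker Stmn2 was called, higher at 24 weeks (0.45, SE 0.11, adjusted p = 0.00927). Other markers called only without that nerve included Cnp of the Schwann cell list (-0.21, adjusted p = 0.0382) and Adipoq of the adipocyte list (1.25, 0.0371). The skeletal muscle means ran from 6.58 to 14.33 at 16 weeks and from 6.52 to 17.07 at 24 weeks, with 0 of 6 genes called. With the Schwann cell marker mean as a covariate, 0 of 10 members passed (0.294% of all genes did): the difference was -0.12 for Gldn (adjusted p = 0.358), -0.16 for Nrcam (0.162), -0.08 for Nfasc (0.668) and -0.20 for Cntn1 (0.668). With the adipocyte marker mean as a covariate, 0 of 10 passed (0.488% of all genes), with -0.24 for Gldn (adjusted p = 0.162), -0.20 for Nrcam (0.0522) and -0.16 for Nfasc (0.406). With the muscle marker mean, Gldn (-0.36, adjusted p = 0.00511), Nrcam (-0.30, 0.00169) and Nfasc (-0.29, 0.0327) remained past the threshold. The part of cell makeup in the age difference was not tested beyond these fits.

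**Figure D3:**
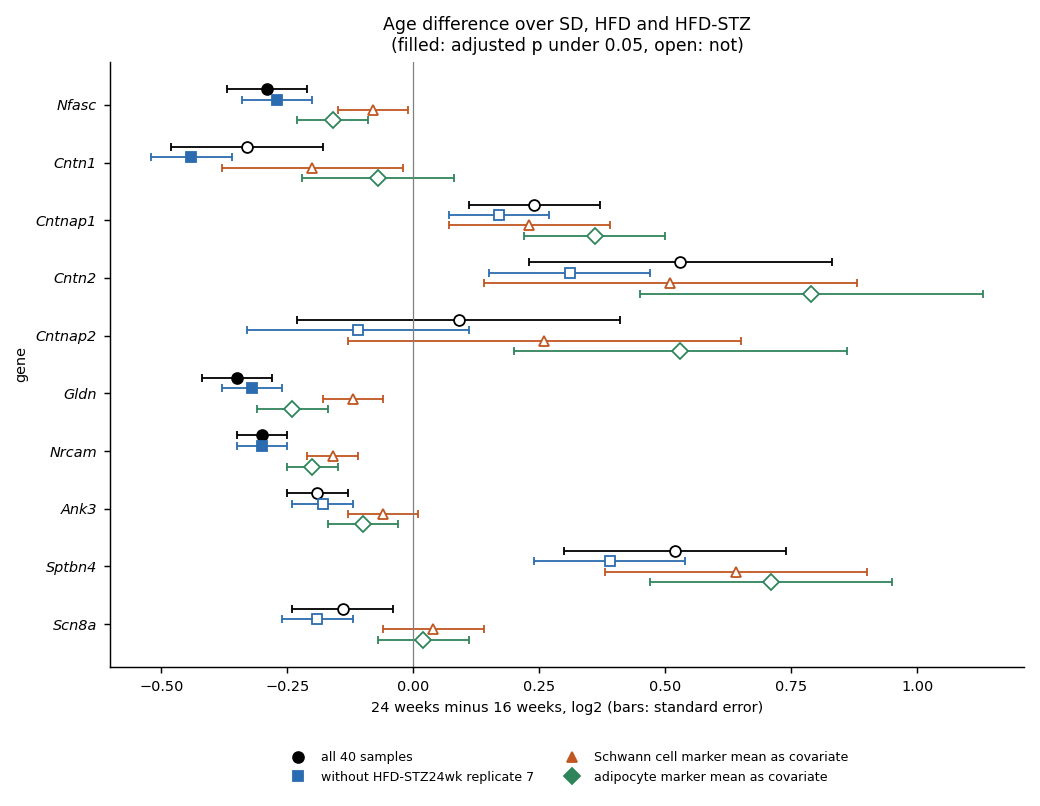
Difference between 24 and 16 weeks (x axis, log2, bars are 1 standard error) of each member (y axis), averaged over SD, HFD and HFD-STZ, in 4 fits. Filled symbols have an adjusted p under 0.05: Gldn, Nrcam and Nfasc with all 40 nerves, these and Cntn1 without HFD-STZ24wk replicate 7, and none with the Schwann cell or adipocyte marker mean as a covariate.

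Within each diet no member passed the adjusted threshold between the ages. In SD, 0 of 10 members and 0% of all genes were called, and at an unadjusted limma p under 0.05 there were 6 members (10.5% of all genes): Cntn1 (-0.41, adjusted p = 0.352), Gldn (-0.28, 0.437), Nrcam (-0.26, 0.441) and Scn8a (-0.36, 0.459) were lower, and Cntnap1 (0.43, 0.461) and Cntn2 (0.64, 0.459) higher, at 24 weeks. In HFD, 0 members were called (0.0654% of genes), with 5 at an unadjusted p under 0.05 (5.90% of genes), among them Gldn (-0.36, SE 0.11, adjusted p = 0.554) and Nrcam (-0.28, SE 0.09, adjusted p = 0.598). In HFD-STZ, 0 members were called (0% of genes), with 4 at an unadjusted p under 0.05 (12.5% of genes), Nrcam (-0.37, SE 0.09, adjusted p = 0.279), Nfasc (-0.36), Gldn (-0.41) and Ank3 (-0.29), and 5 without replicate 7 (15.4% of genes), the fifth being Cntn1. The differences of Gldn and Nrcam had the same sign in all 3 diets, and the test of whether the HFD or HFD-STZ difference changed with age called 0 of 10 members in either model, with or without replicate 7 (0% of all genes in each). At an unadjusted p under 0.05 this test had 0 members for HFD (1.67% of genes), 0 for HFD-STZ (4.68%) and 2 for HFD-STZ without replicate 7 (4.13%), Cntn2 (-1.03, SE 0.38, adjusted p = 0.871) and Cntnap1 (-0.58, SE 0.26, adjusted p = 0.871). With replicate 7 the Cntn2 value was -0.37.

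For 3 of the members that fell with age (Gldn, Nrcam and, without that nerve, Cntn1), the 250 bases before the RefSeq start (GRCm38.p6, plus strand, no GENCODE exon within) are given to show what lies before genes that moved together. They were chosen after the values were seen, and the window of Nfasc, which passed with all nerves, is not shown. Capitals mark matches to GTGGGNG, letters bound by EGR-type zinc fingers such as the Schwann cell factor Egr2. ACAAAG and ACAATG, letters bound by SOX proteins such as Sox10, were searched as well, and all 3 on both strands.
Gldn, chr9:54286236-54286485: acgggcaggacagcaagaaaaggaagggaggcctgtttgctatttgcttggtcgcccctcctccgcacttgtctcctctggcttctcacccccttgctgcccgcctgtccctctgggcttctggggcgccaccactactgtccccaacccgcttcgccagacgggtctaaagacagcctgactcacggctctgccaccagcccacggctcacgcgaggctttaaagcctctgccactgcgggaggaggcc
Nrcam, chr12:44328635-44328884: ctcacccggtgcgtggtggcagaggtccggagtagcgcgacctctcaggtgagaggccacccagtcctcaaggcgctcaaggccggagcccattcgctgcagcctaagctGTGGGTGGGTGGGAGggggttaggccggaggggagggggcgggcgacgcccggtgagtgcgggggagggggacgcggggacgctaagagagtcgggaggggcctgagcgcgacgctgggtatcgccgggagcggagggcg
Cntn1, chr15:92050915-92051164: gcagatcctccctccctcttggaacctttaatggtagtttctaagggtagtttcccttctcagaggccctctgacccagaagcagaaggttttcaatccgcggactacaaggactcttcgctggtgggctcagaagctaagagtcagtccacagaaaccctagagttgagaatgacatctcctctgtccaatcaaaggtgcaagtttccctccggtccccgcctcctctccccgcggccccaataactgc
The Nrcam window held GTGGGNG 3 times, overlapping, at bases 111 to 125, and the other 2 windows held none of the 3 motifs. Of 32851 RefSeq promoter windows of the same length, 28.1% held GTGGGNG, 16.5% ACAAAG and 10.7% ACAATG, and the match in 1 of 3 windows is a description. The GC content was 72.4% for Nrcam, 63.6% for Gldn and 53.6% for Cntn1, against a median of 52.4% over all windows. Cntn1 has 3 starts in the table, of which the one at the annotated gene start is shown.

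At 16 weeks, when reversal began, no member passed the test in either model against SD. Between HFD and SD, 0 of 10 members were called (0.00557% of all genes, 1 gene), and 0 had an unadjusted limma p under 0.05 (8.55% of genes). The values ran from -0.15 for Scn8a to 0.38 for Cntn2, and the intervals of the abundant genes were narrow: -0.25 to 0.09 for Gldn, -0.24 to 0.07 for Nrcam and -0.19 to 0.19 for Ank3. Between HFD-STZ and SD, 0 members were called (0% of genes) and 0 had an unadjusted p under 0.05 (8.41%), with Cntnap1 the largest relative to its error (0.42, SE 0.20, adjusted p = 0.586). Between HFD-STZ and HFD, 0 were called (0% of genes) and 1 had an unadjusted p under 0.05 (4.88%), Nrcam, 0.15 higher in HFD-STZ (SE 0.07, adjusted p = 0.987, exact permutation p = 0.0568).

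At 24 weeks no member passed the adjusted threshold between HFD and SD, and the largest value was that of Sptbn4, the spectrin under the nodal membrane. SD24wk nerves were lowest at 4.69, with a median of 5.34 and a highest of 6.05, and HFD24wk nerves at 5.36, 6.01 and 7.0, so the groups overlapped between 5.36 and 6.05. The difference was 0.71 (SE 0.27, 95% interval 0.14 to 1.27, adjusted p = 0.430, 2-sided exact permutation p = 0.0258). It was the only one of the 10 at an unadjusted limma p under 0.05, a share near that of all genes (9.05%), and 0 of 10 members were called (0.121% of genes, 22 genes). The glial ligand and its partners differed little, with intervals of -0.40 to 0.09 for Gldn, -0.32 to 0.11 for Nrcam, -0.37 to 0.24 for Nfasc and -0.20 to 0.29 for Ank3, which leave out a change of 1.5-fold in any of the 4 (0.58 on the log2 scale).

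HFD-STZ24wk nerves showed a like value for Sptbn4. Against SD24wk it was 0.89 higher (SE 0.41, adjusted p = 0.826) with all 8 nerves and 0.50 higher (SE 0.21, 95% interval 0.04 to 0.95, adjusted p = 0.668, exact permutation p = 0.0443) without replicate 7, where the 7 nerves lay between 5.31 and 6.30. Cntn2 differed from SD24wk by -0.59 without that nerve (95% interval -1.11 to -0.08, adjusted p = 0.631, exact permutation p = 0.037) and by 0.07 with it (interval -1.29 to 1.43). No member was called with that nerve (0.0336% of genes) or without it (0.056% of genes), and 1 or 2 members had an unadjusted p under 0.05 (5.99% and 7.11% of genes). HFD24wk and HFD-STZ24wk share their SD24wk controls.

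Cntn2, the juxtaparanodal contactin, had its highest group values in HFD24wk, at 4.92, 4.72, 5.16, 5.35, 4.80, 4.65 and 4.90. The SD24wk nerves were at 3.67, 4.53 and 4.99 (lowest, median, highest) and the HFD-STZ24wk nerves without replicate 7 at 3.27, 3.81 and 4.84, which overlapped HFD24wk in 1 nerve. Between HFD-STZ24wk and HFD24wk Cntn2 was -1.01 without replicate 7 (SE 0.21, 95% interval -1.46 to -0.57, 0.496 times, adjusted p = 0.889, exact permutation p = 0.00233) and -0.35 with it (SE 0.67, adjusted p = 0.887). In this comparison 0 of 10 members were called with or without that nerve (0% of genes in both), and 0 and 1 members had an unadjusted p under 0.05 (5.59% and 5.24% of genes). These exact permutation p-values are for 1 gene each, among 10 genes and 14 pairs of groups, and carry no adjustment.

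After reversal, 0 of 10 members were called in HFD-DR24wk against HFD24wk (0.0108% of genes), and 1 had an unadjusted p under 0.05 (6.72% of genes). This was again Cntn2, at 3.66, 4.30 and 4.83 (lowest, median, highest) in HFD-DR24wk, 0.67 below HFD24wk (SE 0.19, 95% interval -1.08 to -0.27, 0.628 times, adjusted p = 0.501, exact permutation p = 0.0035). Against SD24wk it was -0.25 in HFD-DR24wk (interval -0.74 to 0.23). The comparisons share the HFD24wk nerves, whose 7 Cntn2 values had an SD of 0.25 against 0.36 to 0.68 in the other 7 groups (HFD-STZ24wk without replicate 7). Sptbn4 was at 5.96 ± 0.33 (SD, n = 7) in HFD-DR24wk, 0.60 above SD24wk (SE 0.21, adjusted p = 0.925, exact permutation p = 0.0185) and -0.10 from HFD24wk (interval -0.62 to 0.42).

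In the STZ model, 0 of 10 members were called in HFD-STZ-DR24wk against HFD-STZ24wk with replicate 7 (0.084% of genes) or without it (0.654% of genes), and 0 had an unadjusted p under 0.05 in either fit (6.48% and 8.28% of genes). Gldn was 0.22 higher after reversal without replicate 7 (SE 0.13, interval -0.05 to 0.49, adjusted p = 0.741), and 0.31 with it (adjusted p = 0.794). Sptbn4 was -0.37 without replicate 7 (SE 0.22, interval -0.85 to 0.11) and -0.76 with it. Of the 10 members, 8 were higher after reversal without that nerve and 4 with it, so the direction of some members turned on it. Against SD24wk, 0 members were called in HFD-DR24wk and in HFD-STZ-DR24wk (0% of genes in both), with 1 each at an unadjusted p under 0.05 (5.14% and 9.16% of genes), and between HFD-STZ-DR24wk and HFD-DR24wk 0 were called (0% of genes) and 0 had an unadjusted p under 0.05 (3.58%). The test of whether reversal acted differently in the 2 models called 0 members with or without replicate 7 (0% of genes in both). At an unadjusted p under 0.05 it had 0 members with that nerve (1.71% of genes) and 1 without it (1.72%), Cntn2 (0.91, SE 0.30, adjusted p = 1). With that nerve the Cntn2 value was 0.24.

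**Figure D4:**
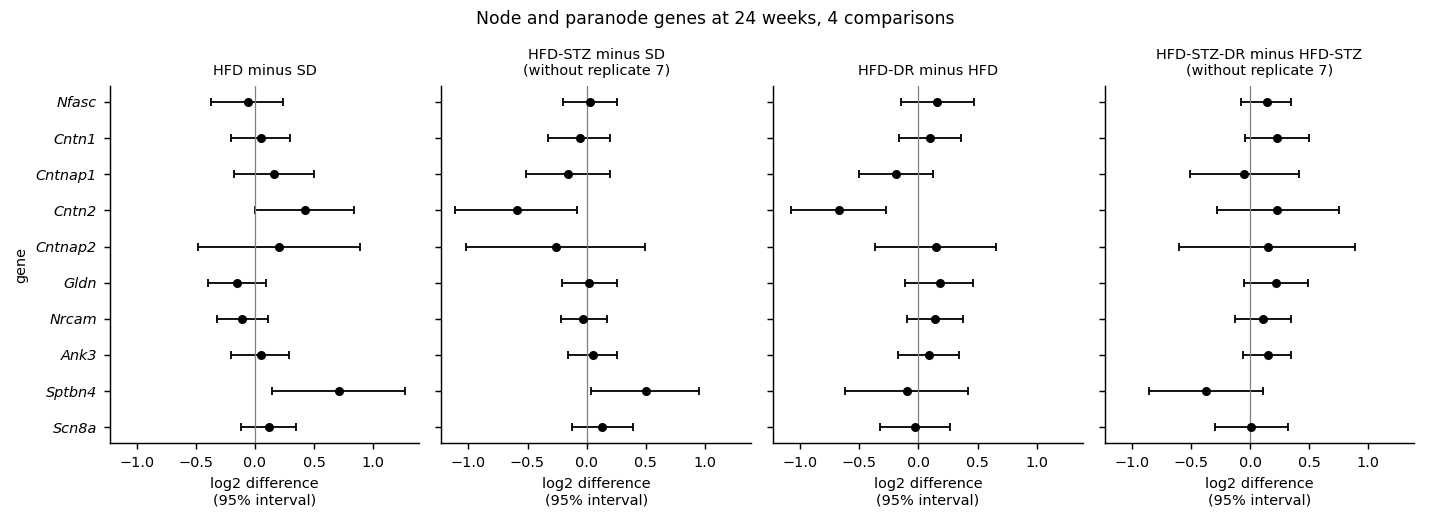
Log2 difference (x axis, bars are 95% intervals of the limma fit) of each member (y axis) in 4 comparisons at 24 weeks, the HFD-STZ ones without HFD-STZ24wk replicate 7. No adjusted p is under 0.05, and the intervals on 1 side of 0 are those of Sptbn4 against SD (0.14 to 1.27 and 0.04 to 0.95) and of Cntn2 in HFD-STZ minus SD (-1.11 to -0.08) and HFD-DR minus HFD (-1.08 to -0.27).

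Across all 8 groups at once, the test of any difference called 0 of 10 members (1.97% of genes), with Nrcam (adjusted p = 0.0700) and Gldn (0.0771) nearest. With a covariate for the 8 blocks into which the library numbers fall, it called both (adjusted p = 0.0239 and 0.0197). Without HFD-STZ24wk replicate 7 it called 1, Cntn1 (adjusted p = 0.0158, 3.13% of genes). In the order of group means, without that nerve, HFD-STZ16wk was highest for Nfasc, Cntn1, Gldn, Nrcam and Ank3 (14.03, 9.62, 14.42, 12.11 and 14.05), and HFD24wk lowest for Nfasc (13.63), Gldn (13.92) and Nrcam (11.68). Neighbours in that order differed by less than the larger of their SDs in every case except 1 for Cntn1, where HFD16wk, the lowest of the 3 groups of 16 weeks, (9.53 ± 0.20, n = 7) stood 0.23 above HFD-STZ-DR24wk (9.29 ± 0.14, n = 6). For Cntn2, Cntnap1 and Sptbn4 the highest mean was that of HFD24wk (4.93 ± 0.25, 6.45 ± 0.32 and 6.06 ± 0.60, n = 7) and the lowest that of SD16wk (3.87 ± 0.53, 5.86 ± 0.36 and 5.16 ± 0.58, n = 5).

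The neighbouring genes of the same domains, from the 5 lists, were nearly all without a call. In the 14 pairwise comparisons, 1 of the 48 genes passed in 1 comparison, where 0.0654% of all genes did: Scn3b, a beta subunit of sodium channels, was 0.55 lower in HFD24wk (10.37 ± 0.20, n = 7) than in HFD16wk (10.91 ± 0.07, n = 7; SE 0.08, adjusted p = 0.0220). In the lists without a pairwise call, the genes with the smallest p were Sptan1 (HFD-STZ with age, -0.20, adjusted p = 0.322), Kcnab2 (HFD-DR against HFD, -0.36, 0.467), Hapln2 (HFD with age, -0.86, 0.325) and Cdh1 (HFD-STZ with age, -0.35, 0.279). In the averaged age contrast, in which 4.58% of all genes were called and 3.29% were lower, Scn3b was the 1 gene called of the 12 nodal channel genes, with a difference of -0.53 (SE 0.06, adjusted p = 1.87e-06). Of the 9 genes listed for microvilli and nodal matrix, Hapln2, a hyaluronan link protein gene (-0.62, SE 0.12, adjusted p = 0.00169), and Dag1 (-0.26, adjusted p = 0.0114) fell. Of the 12 genes of non-compact myelin and internode, 4 fell: the myelin-associated glycoprotein gene Mag (-0.23, adjusted p = 0.0463), the connexin gene Gjc3 (-0.31, 0.00672), the cadherin gene Cdh1 (-0.29, 0.0146) and the polarity gene Mpp5 (-0.17, 0.0140). Neither the 5 scaffold nor the 10 juxtaparanodal genes held a call, with medians of -0.07 and 0.02 against 0.01 for all genes, and without replicate 7 Adam22 (-0.19, adjusted p = 0.0439) and the connexin gene Gjb1 (-0.26, 0.0463) fell too.

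Across the 52 nerves the members differed in how far they followed the Schwann cell markers. Pearson's r with the mean of the 10 Schwann cell markers was 0.85 for Gldn, 0.76 for Nfasc, 0.75 for Scn8a, 0.74 for Nrcam, 0.62 for Cntn1 and 0.54 for Ank3 (Spearman's rho 0.81, 0.70, 0.76, 0.67, 0.61 and 0.48). After the group means were subtracted r was 0.83, 0.72, 0.74, 0.66, 0.51 and 0.49 in the same order, and without the 2 nerves farthest from the median marker mean it was 0.82, 0.73, 0.73, 0.69, 0.60 and 0.48. For Cntnap1, Cntn2, Cntnap2 and Sptbn4, the members of lowest level and widest spread, r with the Schwann cell markers lay between -0.19 and 0.10. After the group means were subtracted it was 0.00, 0.13, 0.16 and 0.31. Their r with the mean of the neuron markers was 0.58, 0.50, 0.71 and 0.36, and within groups 0.56, 0.49, 0.73 and 0.26. For the first 6 genes it lay between -0.16 and 0.28, with Cntn1 at 0.45 within groups. With the adipocyte marker mean, r of the first 6 in the same order was -0.66, -0.61, -0.43, -0.57, -0.52 and -0.53. For the other 4 it lay between -0.20 and 0.13. These are descriptions with no test: the nerves share groups, and all genes of a nerve share its library and its normalization.

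Among the members themselves, the 15 pairs of the first 6 genes had r from 0.44 to 0.92, highest for Gldn with Nrcam (0.92, and 0.90 within groups), Gldn with Nfasc (0.88) and Nfasc with Nrcam (0.86). The 6 pairs of the other 4 genes had r from 0.11 to 0.44, and the 24 mixed pairs from -0.27 to 0.30. Within groups the mixed pairs ran from -0.15 to 0.49, highest for Sptbn4 with Nfasc, the pairs of the first 6 genes from 0.34 to 0.90 and those of the other 4 from -0.03 to 0.43. The paranodal partners Cntn1 and Cntnap1 stood at -0.04, and the juxtaparanodal partners Cntn2 and Cntnap2 at 0.40.

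**Figure D5:**
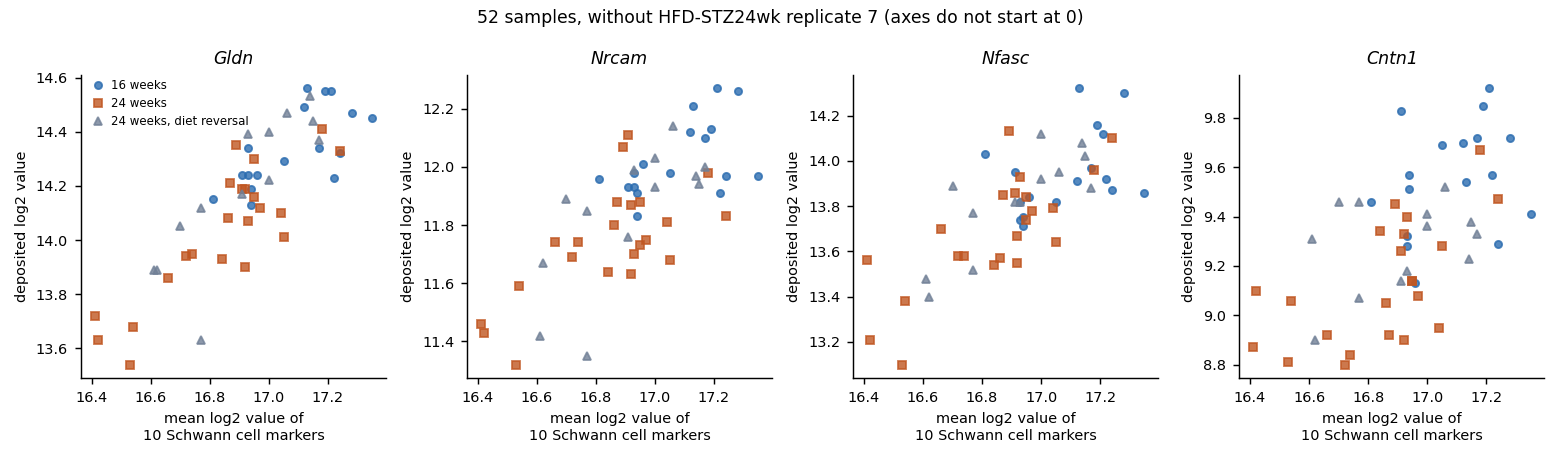
Deposited log2 value (y axis) of Gldn, Nrcam, Nfasc and Cntn1 against the mean log2 value of 10 Schwann cell markers (x axis) in the 52 nerves without HFD-STZ24wk replicate 7, by age and reversal. The points rise together (r = 0.85, 0.74, 0.76 and 0.62), and the 16-week nerves lie at marker means of 16.81 to 17.35.

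For each member, the 3 genes with the most similar log2 values were found by Pearson's r, over all 53 nerves and again over 52. Over 53, those of Gldn were Tgfa (0.943), Dag1 (0.926) and Gpr137b (0.926), those of Nfasc Sept3 (0.937), Plxnb1 (0.934) and Plxnb3 (0.917), and among those of Nrcam were Ctnnal1 (0.916) and Sept3 (0.893). Ank3 was most like Atp8a1 (0.901), Magi2 (0.898) and Sorcs1 (0.888), and Scn8a most like Syt11 (0.860), Rtn3 (0.846) and Rtn1 (0.836). For the other genes that were highest in HFD-STZ24wk replicate 7, the closest were Lrp11 for Cntn1 (0.877), Scn11a for Cntn2 (0.867), Grik1 for Cntnap2 (0.877), Atp2b2 for Cntnap1 (0.789) and Mapk8ip2 for Sptbn4 (0.782).

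Without that nerve the closest genes were still Tgfa for Gldn (0.935) and, of the same 3 genes, Plxnb1 for Nfasc (0.939), and Gldn itself was the second closest to Nrcam (0.917). The leading gene differed for Cntn1 (Csnk1g3, 0.777), Cntn2 (Epha10, 0.737), Cntnap1 (Atp6v0a4, 0.707), Cntnap2 (Col25a1, 0.867), Sptbn4 (4933430M04Rik, 0.564) and Scn8a (Lctl, 0.816). For Cntn1 the highest r over 52 nerves was thus 0.777, against 0.877 with the 1 nerve included, and for Sptbn4 0.564 against 0.782.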

How the data were processed

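The deposited log2 values, 1 per gene and nerve, were made by the authors from polyA-selected libraries without strand: reads were quality-filtered, aligned to mm10 (GRCm38) with HISAT2 and counted with featureCounts, with FPKM and DESeq2 also named. Versions and the normalization behind the log2 values are not given in the sources used here, and the labels and the paper name different RNA and library kits. How far that normalization changes differences between nerves is therefore unknown.

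Samples were grouped by the labels, which carry no replicate numbers. The plan's test was used as written: limma 3.58.1 (R 4.3.3) on the nerves of the 2 groups, empirical Bayes with a mean-variance trend, genes with a mean of at least 3.32 (log2 of 10), without the 25 genes listed above 22 in a nerve (23 highest in HFD-STZ24wk replicate 7). P-values were Benjamini-Hochberg adjusted over all genes at 0.05. Means and SDs are of log2 values. Exact 2-sided permutation tests were added for single genes. P-values measure the spread between these nerves. Code was tested on simulated data. Named were the 10 members, genes of the lists past the threshold (else the 1 with the smallest p over the pairwise comparisons), markers that describe a nerve that stands apart and, per member, the 3 most correlated genes. Members and lists were chosen with earlier results of these data known. Alternatives were filters, variance priors, median centring, library-number runs, marker covariates, all groups in 1 fit and leaving out each nerve. Some genes that this rule would name are not reported here.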

Additional observations from a re-analysis of the deposited data

Results flagged for a closer look

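Of 80 pairs of gene and group, 9 had 1 nerve whose gap to its nearest neighbour was large against the whole range of the group (Dixon's 95% limit), a rate of which chance gives about 1 in 20 pairs, or 4. Of these, 6 were HFD-STZ24wk replicate 7, highest in Cntn1 (11.67), Cntnap1 (7.89), Cntn2 (9.23), Cntnap2 (9.64), Sptbn4 (9.01) and Scn8a (11.06). Cntnap1 was highest in HFD24wk replicate 3 (7.10, next 6.57), whose neuron marker mean of 7.34 was, with that of HFD-STZ-DR24wk replicate 4, the highest of the other 52 nerves, and lowest in HFD16wk replicate 5 (5.73, next 6.19, neuron marker mean 6.54). Scn8a was lowest in SD16wk replicate 5 (9.37, next 9.97), whose neuron marker mean of 6.44 was the lowest. The part of these markers in the values was not tested.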

How the results depend on the processing

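The number of members past the threshold was 0 in all 14 pairwise and 3 interaction comparisons under every setting run, including each nerve left out in turn. For any difference among the 8 groups it was 0, but 2 with the runs of library numbers as a covariate (Gldn and Nrcam), 1 with the neuron marker mean as a covariate (Cntn1) and 0 to 2 with 1 nerve left out: Cntn1 without HFD-STZ24wk replicate 7, Nrcam without SD24wk replicate 4 or HFD-DR24wk replicate 1, and Gldn with Nrcam without HFD24wk replicate 2, HFD-STZ24wk replicate 6 or HFD-STZ-DR24wk replicate 4. For the age contrast it was 3, but 5 with the neuron marker mean as a covariate (Cntn1 and Scn8a in addition), 0 with the Schwann cell and 0 with the adipocyte marker mean, 4 with median centring or with the library-number runs in a fit of 8 groups (Ank3 in addition), 2 without the filter on low values (Nfasc lost), and 2 to 4 with 1 nerve left out, where Cntn1 passed without HFD-STZ24wk replicate 7, Nfasc did not without SD16wk replicate 1, and Ank3 passed without SD24wk replicate 4, HFD24wk replicate 2, HFD-STZ24wk replicate 6 or HFD-STZ16wk replicate 5. The cause of these changes was not tested. No member value past the threshold changed sign. Of 1969 member values under other settings, 116 that were past no threshold changed sign (the largest of them 0.46 in size as reported), and 160 of 3110 with a nerve left out. Median centring moved the median of all genes by at most 0.084. Asking for at least log2(10) in every nerve left out Cntn2. Of all genes, 826 were called in the age contrast, but 415 without the filter, 1262 with the runs, 1969 with centring, 1453 with the neuron, 53 with the Schwann cell and 88 with the adipocyte marker mean. No paired analysis was possible because the labels carry no replicate numbers and tie no animal to several groups, and the library-number runs entered as a covariate only. The unknown reads per gene limit the genes of low level most, Cntn2, Cntnap2 and Sptbn4.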
